A study of Mus musculus with 9 samples.

Results

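Caveolae are small flask-shaped pits of the plasma membrane, and 6 genes that build them were followed here in differentiating 3T3-L1 cells, a mouse fibroblast line of preadipocytes that can be turned into lipid-filled adipocytes by hormones. The 6 genes were the caveolins Cav1 and Cav2, the cavins Cavin1, Cavin2 and Cavin3, and Ehd2. They were taken by gene symbol from the 54532 genes of the deposited tables, and all 6 were found and tested. Poly A RNA was sequenced from 9 libraries in 3 groups, with n = 3 libraries per group. Cells were held at confluence for 3 days before differentiation was started. The Undifferentiated group was the control without differentiation, in high glucose DMEM with bovine calf serum. The Differentiated group was kept for 3 days in a differentiation medium made from a DMEM without arginine and lysine, to which fetal bovine serum, arginine and 800 μM lysine were added. The inducers of differentiation in it were insulin at 10 μg/mL, the glucocorticoid dexamethasone at 1 μM, the PPARγ agonist rosiglitazone at 1 μM and the phosphodiesterase inhibitor IBMX (3-isobutyl-1-methylxanthine) at 0.5 mM. The Lysfree group received the same medium with 0 μM lysine added, so the serum was its remaining source. The collection day of the Undifferentiated cells was not stated, and these inducers (rosiglitazone among them), serum and base medium cannot be told apart in a comparison with this group. Whether the replicates came from separate cultures was not stated either, so p-values measure the spread between these libraries, which may be technical.

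Caveolin 1 is the membrane protein that forms the caveolar coat, and caveolin 2 assembles with it into oligomers. Cavins form a second, peripheral coat on the cytosolic side: cavin 1 is required for caveolae to form and recruits the others, cavin 2 helps to shape the membrane, and cavin 3 is an accessory subunit that binds cavin 1. EHD2 is an ATPase at the neck of the pit that holds caveolae at the cell surface. Adipocytes are among the cells richest in caveolae, where these pits carry insulin receptors and fatty acid transporters and serve as a membrane reserve.

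In the deposited mm10 coordinates, Cav1 (ENSMUSG00000007655) lies at chr6:17306335-17341452 on the plus strand. Cav2 (ENSMUSG00000000058) lies upstream of it on the same strand at chr6:17281185-17289115, with 17219 bases between the end of Cav2 and the start of Cav1. Cavin1 (ENSMUSG00000004044) is at chr11:100956733-100970887 on the minus strand. Cavin2 (ENSMUSG00000045954) is at chr1:51289126-51302960 on the plus strand. Cavin3 (ENSMUSG00000037060, chr7:105480083-105482300) and Ehd2 (ENSMUSG00000074364, chr7:15946958-15967567) are on the minus strand. All 6 are protein-coding. An antisense gene, Gm15581, spans both caveolin genes and had 0 counts in every library. The antisense gene 9330175M20Rik over Cavin2 had 0 to 1 counts, and Gm45667, which overlaps Cavin3 by 374 bases, had 0 to 5 counts. The strand setting of the counting is not given in the sources used here, so it is not known how reads of overlapping stretches were assigned, or whether they were counted.

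In both comparisons with Differentiated cells below, these genes moved in the same direction, but they did not in Lysfree against Undifferentiated cells. Their promoters are shown as RefSeq gives them for build GRCm38.p6. Each runs from 250 bases before to 50 bases after the start site, 5′ to 3′ on the strand of the gene. The table of promoters held 5 of the 6 genes, all but Cavin3, and for Cav1 and Cavin1 the first of the listed start sites is printed. Capitals mark matches to the motifs named after the sequences.
Cav1 promoter, plus strand, chr6:17306085-17306384: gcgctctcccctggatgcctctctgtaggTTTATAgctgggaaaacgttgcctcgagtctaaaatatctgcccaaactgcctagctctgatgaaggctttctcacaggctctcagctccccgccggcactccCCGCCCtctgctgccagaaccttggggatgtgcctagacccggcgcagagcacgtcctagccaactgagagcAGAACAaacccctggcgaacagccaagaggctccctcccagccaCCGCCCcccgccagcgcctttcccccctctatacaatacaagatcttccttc
Cav2 promoter, plus strand, chr6:17280935-17281234: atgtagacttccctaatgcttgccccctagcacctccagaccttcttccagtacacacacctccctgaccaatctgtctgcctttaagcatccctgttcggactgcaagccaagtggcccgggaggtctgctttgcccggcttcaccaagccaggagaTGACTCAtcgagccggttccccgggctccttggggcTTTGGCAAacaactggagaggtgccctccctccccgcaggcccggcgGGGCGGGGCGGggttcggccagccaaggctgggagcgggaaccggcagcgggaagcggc
Cavin1 promoter, minus strand, chr11:100970566-100970865: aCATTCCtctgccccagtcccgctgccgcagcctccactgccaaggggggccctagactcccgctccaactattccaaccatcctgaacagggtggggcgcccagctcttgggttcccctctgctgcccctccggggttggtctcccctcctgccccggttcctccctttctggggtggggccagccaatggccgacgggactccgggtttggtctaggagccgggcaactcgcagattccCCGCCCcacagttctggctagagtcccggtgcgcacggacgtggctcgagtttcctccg
Cavin2 promoter, plus strand, chr1:51288876-51289175: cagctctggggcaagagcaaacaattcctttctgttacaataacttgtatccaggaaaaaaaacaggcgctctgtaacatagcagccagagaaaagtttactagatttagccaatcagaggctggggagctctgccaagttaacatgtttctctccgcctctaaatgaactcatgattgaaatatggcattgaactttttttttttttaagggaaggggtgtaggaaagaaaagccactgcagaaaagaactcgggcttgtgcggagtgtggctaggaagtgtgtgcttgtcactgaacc
Ehd2 promoter, minus strand, chr7:15967486-15967785: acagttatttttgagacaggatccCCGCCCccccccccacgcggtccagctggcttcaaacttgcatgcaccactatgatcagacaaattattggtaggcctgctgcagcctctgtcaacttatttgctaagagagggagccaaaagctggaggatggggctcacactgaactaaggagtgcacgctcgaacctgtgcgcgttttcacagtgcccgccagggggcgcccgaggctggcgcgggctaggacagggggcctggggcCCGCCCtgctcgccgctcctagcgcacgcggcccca

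On both strands, 11 short motifs were searched. The GC box GGGCGG, the site of SP1-type factors, was present in the windows of Cav1, Cav2, Cavin1 and Ehd2, and in 35.7% of 32851 promoters of the same length. The pair in Cav2, at -9 and -4 from the start site, overlaps by a base. Cav1 also held TATAAA at -221, found in 13.6% of promoters, and AGAACA at -46, the arm of a steroid receptor element, found in 19.0%. Cav2 held the AP-1 letters TGANTCA at -92 (7.81% of promoters) and TTNNGCAA, the letters of a C/EBP site, at -56 (10.8%). Cavin1 held GGAATG, the TEAD letters, at -249 (14.7%). No window held the CRE TGACGTCA (1.79% of promoters), the nuclear receptor arm AGGTCA (16.3%), the E-box CACGTG (7.15%), the SRE letters TCACNCCAC (1.24%) or the ATF4 letters TGATGNAA (3.97%). The Cavin2 window held none of the 11 and had the lowest GC content, 43.3%, against 59.3% for Cav1, 64.3% for Cav2, 67.0% for Cavin1 and 62.0% for Ehd2, and a median of 52.7% over all promoters. A match is a description of letters, not a site in use.

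Between 15880144 and 21806693 reads were counted on genes per library. In Lysfree 1 the counts stood apart: it differed from the other Lysfree libraries with a chi-square per degree of freedom of 39.6 and 40.7, against 2.67 to 11.3 for every other pair within a group, and 1006 of 7603 genes (13.2%) with a mean of at least 5 FPKM over the 9 libraries were more than 1.5 times away from the mean of the other Lysfree libraries. Values without Lysfree 1 are given for the Lysfree fold changes of the 6 genes and for the counts of the gene lists other than the markers. Levels are in the deposited FPKM (fragments per kilobase of gene, scaled to the reads of the library), and differences are log2 fold changes from edgeR's quasi-likelihood test on counts, called where the Benjamini-Hochberg adjusted p was under 0.05. Genes that also changed at least 2-fold are named DEGs. The lowest count of a caveola gene in any library was 1047, for which counting error alone is 3.09%.

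In Differentiated cells all 6 caveola genes rose over Undifferentiated cells, and 5 of them, all but Cavin3, were DEGs. Over all 24402 genes tested in this comparison, 23.0% were called higher, 23.2% were called lower, and 10.4% were DEGs with a higher level. Genes with few counts are among those tested, here and in the comparisons below. Of the 24402, 13869 passed edgeR's filter for expressed genes (filterByExpr), and shares over these alone are not given. In all 6 genes the 3 Differentiated libraries lay above the 3 Undifferentiated libraries, as they did in 26.2% of genes tested. The median log2 fold change of the 6 genes was 1.94, against 0.02 over all genes tested. Their summed level was 443 ± 8.67 FPKM (SD, n = 3) in Undifferentiated cells and 1594 ± 4.22 FPKM in Differentiated cells. In bulk RNA, more cells of a type and more RNA per cell cannot be told apart.

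Without added lysine the picture was the reverse: all 6 genes fell in Lysfree against Differentiated cells, and again 5, all but Cavin3, were DEGs. Of 24130 genes tested, 18.8% were called lower and 19.7% higher, and 10.5% were DEGs with a lower level. The 3 Lysfree libraries lay below the 3 Differentiated libraries in all 6 genes, and in 25.3% of genes tested. The median log2 fold change of the 6 genes was -2.17, against -0.06 over all genes tested. Their summed level in Lysfree cells was 347 ± 23.8 FPKM. Both comparisons share the Differentiated libraries, so their values are given side by side and not as independent results.

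Against Undifferentiated cells the Lysfree group did not move in a single direction. Both caveolins were higher, while Cavin1, Cavin3 and Ehd2 were lower, and Cavin2 did not pass the test. Of 23994 genes tested, 18.0% were called higher and 17.1% lower. None of the 6 was a DEG in this comparison, where 14.3% of all genes tested were DEGs in either direction. The median log2 fold change of the 6 genes was -0.31, against -0.02 over all genes tested.

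**Figure D1:**
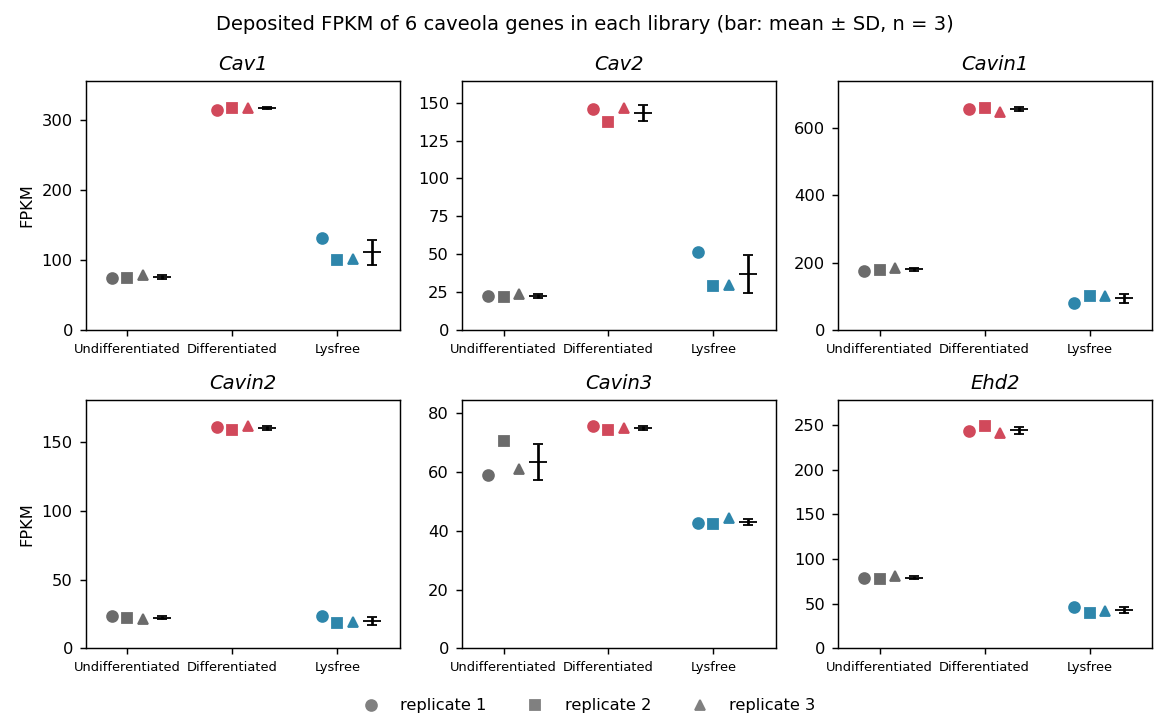
Deposited FPKM of the 6 caveola genes in each of the 9 libraries, with the FPKM axis starting at 0, a marker shape for each replicate number and the mean ± SD (n = 3) to the right of each group. Cav1 and Cav2 of Lysfree cells lie between the other groups, while Cavin1, Cavin3 and Ehd2 lie below both. Lysfree 1 is the highest Lysfree library for Cav1, Cav2, Cavin2 and Ehd2 and the lowest for Cavin1.

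Cav1 stood at 74.0, 74.1 and 78.3 FPKM in the Undifferentiated libraries, at 315, 318 and 317 FPKM in the Differentiated libraries and at 132, 100.2 and 101 FPKM in the Lysfree libraries. The 3 groups did not overlap, and Lysfree cells lay between the others, nearer to Undifferentiated cells. Cav1 rose 4.12-fold on differentiation (log2 2.04 ± 0.05, SE), with an adjusted p that edgeR returned as 0, below the smallest number it stores. In Lysfree against Differentiated cells Cav1 fell by 1.45 on the log2 scale (SE 0.10, adjusted p = 5.8e-11), or by 1.61 without Lysfree 1. Against Undifferentiated cells it was 1.52-fold higher (log2 0.60, SE 0.10, adjusted p = 1.4e-05). This last value was 0.44 without Lysfree 1 (adjusted p = 1.3e-13), which stood 1.31 times above the mean of the other Lysfree libraries.

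Cav2, the partner of caveolin 1 in the coat, stood at 22.3, 21.5 and 23.9 FPKM in Undifferentiated, 146, 137 and 147 FPKM in Differentiated and 51.5, 29.3 and 29.9 FPKM in Lysfree libraries. Again no groups overlapped, but Lysfree 1 lay 1.74 times above the mean of the other Lysfree libraries, the widest gap of the 6 genes. Cav2 rose 6.23-fold on differentiation (log2 2.64, SE 0.06, adjusted p returned as 0) and fell by 1.90 in Lysfree against Differentiated cells (SE 0.15, adjusted p = 1.0e-09), or by 2.23 without Lysfree 1. Against Undifferentiated cells it was 1.68-fold higher in the Lysfree group (log2 0.75, SE 0.14, adjusted p = 3.5e-05). Without Lysfree 1 this difference was 0.41 (adjusted p = 7.5e-09), and with limma on log2(FPKM + 1) it did not pass the test (0.64, adjusted p = 0.085).

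Cavin1, the subunit on which caveola formation depends, had the highest level of the 6 genes in Undifferentiated and Differentiated cells. It stood at 175, 179 and 184 FPKM in Undifferentiated, 655, 659 and 648 FPKM in Differentiated and 79.0, 101 and 101 FPKM in Lysfree libraries. Lysfree cells were the lowest group for this gene, with no overlap. Cavin1 rose 3.57-fold on differentiation (log2 1.84, SE 0.05, adjusted p returned as 0). In Lysfree cells it fell 6.67-fold from the Differentiated level (log2 -2.74, SE 0.10, adjusted p = 2.5e-15) and was 1.85-fold below the Undifferentiated level (log2 -0.89, SE 0.10, adjusted p = 8.9e-09). Lysfree 1 was the lowest library here, 0.783 times the mean of the other Lysfree libraries. For the caveolins, Cavin2 and Ehd2 it was instead the highest Lysfree library. Without it the differences were -2.65 and -0.81.

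Cavin2, which helps to bend the caveolar membrane, stood at 23.6, 22.2 and 21.4 FPKM in Undifferentiated, 161, 158 and 161 FPKM in Differentiated and 23.4, 18.1 and 18.9 FPKM in Lysfree libraries. It had the steepest rise and the steepest fall of the 6 genes. The rise was 7.01-fold (log2 2.81, SE 0.06, adjusted p returned as 0), and the fall in Lysfree against Differentiated cells was 7.61-fold (log2 -2.93, SE 0.10, adjusted p = 2.3e-15, or -3.07 without Lysfree 1). Lysfree 1 lay within the range of the Undifferentiated libraries, and the other Lysfree libraries lay below that range. The difference between Lysfree and Undifferentiated cells was -0.11 (SE 0.11, adjusted p = 0.52), but without Lysfree 1 it was -0.25 and passed the test (SE 0.08, adjusted p = 0.0026).

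Cavin3, the accessory subunit, moved least. Its levels were 59.0, 70.5 and 61.0 FPKM in Undifferentiated, 75.5, 74.1 and 74.9 FPKM in Differentiated and 42.5, 42.2 and 44.2 FPKM in Lysfree libraries. No groups overlapped, although Undifferentiated 2 came near to the Differentiated level. Cavin3 rose 1.16-fold on differentiation (log2 0.21, SE 0.06, adjusted p = 0.0011). It fell 1.67-fold in Lysfree against Differentiated cells (log2 -0.74, SE 0.09, adjusted p = 6.8e-07) and was 1.43-fold lower than in Undifferentiated cells (log2 -0.52, SE 0.10, adjusted p = 0.00012). Its 3 Lysfree libraries lay close together, with Lysfree 1 at 0.982 times the mean of the others, and without it the differences were -0.75 and -0.53.

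Ehd2, the neck ATPase, stood at 78.9, 77.9 and 81.1 FPKM in Undifferentiated, 243, 249 and 241 FPKM in Differentiated and 46.5, 39.5 and 42.4 FPKM in Lysfree libraries. Like Cavin1 and Cavin3 it was lowest in Lysfree cells, with no overlap between groups. It rose 3.02-fold on differentiation (log2 1.60, SE 0.05, adjusted p = 3.7e-234). In Lysfree cells it fell 5.46-fold from the Differentiated level (log2 -2.45, SE 0.08, adjusted p = 2.2e-15) and was 1.79-fold below the Undifferentiated level (log2 -0.84, SE 0.10, adjusted p = 9.0e-09). Without Lysfree 1 these differences were -2.53 and -0.93.

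**Figure D2:**
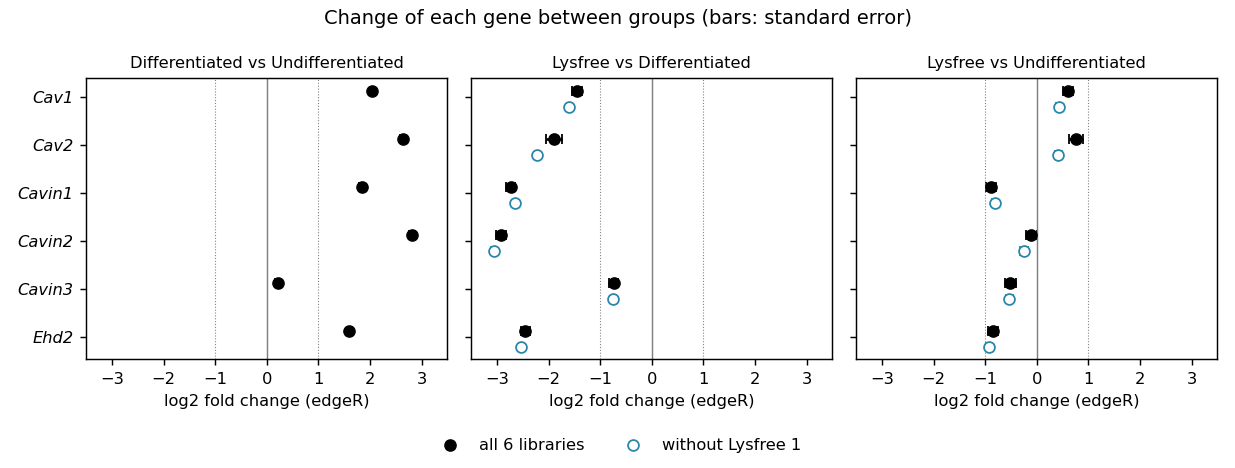
Log2 fold change of each caveola gene in the 3 comparisons (edgeR, bars are standard errors, dotted lines mark a 2-fold change), with all 6 libraries (filled) and without Lysfree 1 (open). Cavin3 is the gene inside the dotted lines in the left and middle panels, and in the right panel Cav1 and Cav2 lie above 0 and the other genes below it.

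Levels per length allowed the 6 genes to be ordered within each group. In Undifferentiated cells Cavin1 (179.6 ± 4.49 FPKM, SD, n = 3) was followed by Ehd2 (79.3 ± 1.67), Cav1 (75.5 ± 2.47), Cavin3 (63.5 ± 6.12), Cav2 (22.6 ± 1.20) and Cavin2 (22.4 ± 1.11). The ranges of Ehd2 and Cav1 overlapped, as did those of Cav2 and Cavin2. In Differentiated cells the order was Cavin1 (654 ± 5.88), Cav1 (317 ± 1.45), Ehd2 (244 ± 4.14), Cavin2 (160.2 ± 1.57), Cav2 (143 ± 5.18) and Cavin3 (74.8 ± 0.690), with no overlap between neighbours. In Lysfree cells Cav1 (111 ± 17.9) came first, and its range overlapped that of Cavin1 (93.6 ± 12.7). Cavin3 (43.0 ± 1.09), Ehd2 (42.8 ± 3.55) and Cav2 (36.9 ± 12.7) followed with overlapping ranges, and Cavin2 (20.1 ± 2.87) was last.

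The make-up of the summed caveola transcripts differed as well. Cavin1 made up 40.6% of the summed FPKM in Undifferentiated and 41.0% in Differentiated cells, and 27.2% ± 5.30 (SD, n = 3) in Lysfree cells. The share of Cav1 was 17.0%, 19.9% and 31.8% in the same order, and that of Cav2 was 5.10%, 9.0% and 10.5%. The Lysfree share of Cav1 lay above those of the other groups with no overlap, while the Cav2 shares of Lysfree and Differentiated libraries overlapped. Cavin2 held 5.06%, 10.1% and 5.78%, Cavin3 14.3%, 4.70% and 12.4%, and Ehd2 17.9%, 15.3% and 12.3%. Lysfree 1 held the extremes among Lysfree libraries, with 35.1% Cav1, 13.8% Cav2 and 21.1% Cavin1. For Ehd2 the Lysfree shares, 11.9% to 12.6%, lay below those of both other groups.

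**Figure D3:**
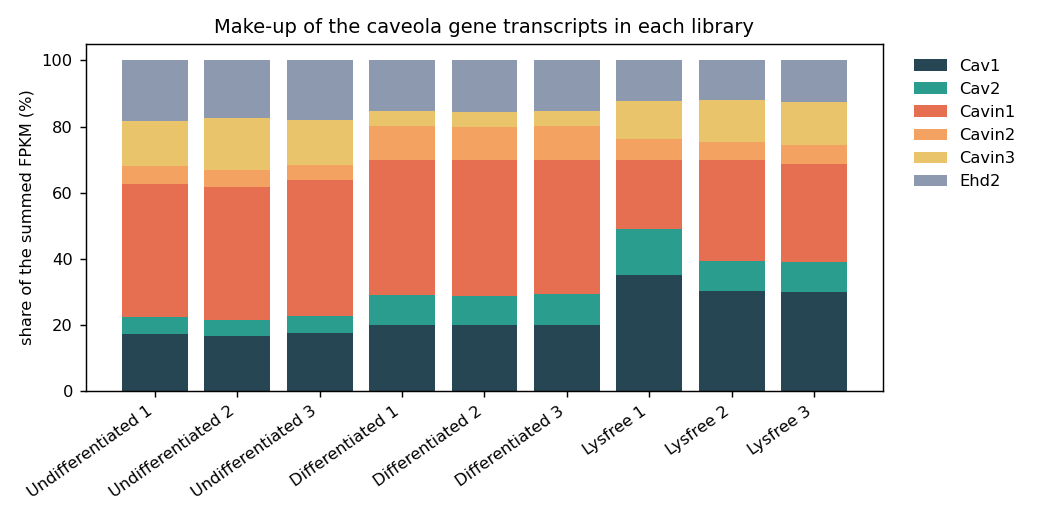
Share of each caveola gene in the summed FPKM of the 6 genes, in percent, as stacked bars for each of the 9 libraries. The Cav1 segment is widest in the Lysfree libraries and the Cavin1 segment narrowest there, most of all in Lysfree 1.

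Since the 6 proteins act at the same structure, the caveola, each gene was also set against Cav1 within the same library, which removes the library scaling. Cavin1 had 2.38 times the FPKM of Cav1 in Undifferentiated cells, 2.06 times in Differentiated cells and 0.846 times in Lysfree cells (geometric means, n = 3). In the Lysfree libraries the Cavin1 ratio was 0.600, 1.01 and 0.996, so that no Lysfree library reached the Differentiated ratios of 2.04 to 2.08. The Cavin2 ratio was 0.297, 0.506 and 0.182, and its Lysfree libraries lay close together, from 0.178 to 0.187, Lysfree 1 included. The Ehd2 ratio was 1.05 in Undifferentiated, 0.771 in Differentiated and 0.388 in Lysfree cells. The Cavin3 ratio was lowest in Differentiated cells, with 0.839, 0.236 and 0.390 in the same order of groups. The Cav2 ratio was 0.299, 0.452 and 0.324.

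Of the 15 differences between groups in these ratios, 14 had groups that did not overlap and reached p = 0.1 in a two-sided exact permutation test, the smallest p that 3 against 3 libraries allow, with an adjusted p of 0.107 over the 15. With this test none could pass a threshold of 0.05. The exception was the ratio of Cav2 to Cav1 in Lysfree against Undifferentiated cells (log2 difference 0.11, exact permutation p = 0.8), which was -0.024 without Lysfree 1. The Cavin1 to Cav1 ratio in Lysfree against Undifferentiated cells differed by -1.49 on the log2 scale, and by -1.25 without Lysfree 1. For Ehd2 to Cav1 the same difference was -1.44, and -1.37 without Lysfree 1.

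**Figure D4:**
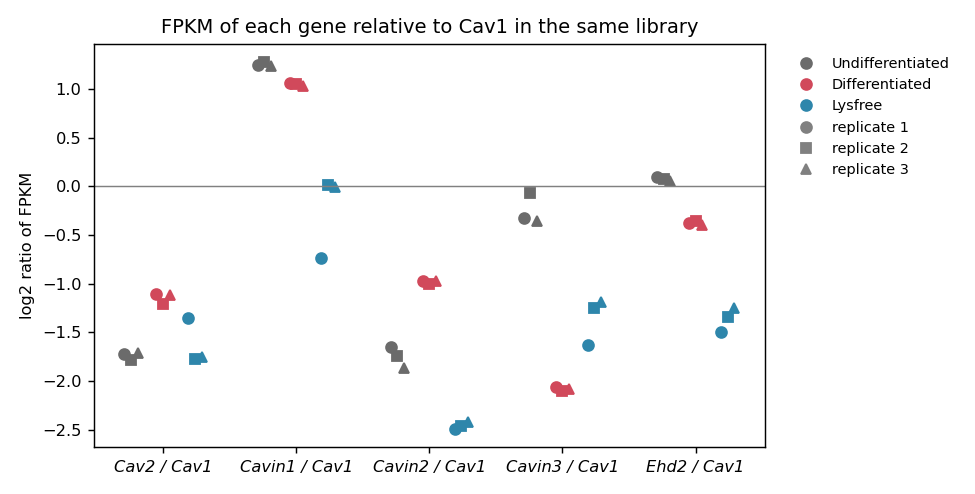
Log2 ratio of the FPKM of each gene to that of Cav1 in the same library, by group (colour) and replicate number (shape), with 0 as equal FPKM. The groups do not overlap except for Cav2, where Lysfree 2 and Lysfree 3 lie within the range of the Undifferentiated libraries.

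Close relatives of the 6 genes and proteins of the caveolar neck did not move as a block. The muscle caveolin Cav3 had 0 to 1 counts in every library, and the muscle cavin Cavin4 stood at 0.333 to 0.753 FPKM and was not called in any comparison. Of 14 relatives and neck proteins, 2 were called higher and 8 lower in Differentiated against Undifferentiated cells. Over all genes tested, 23.0% were called higher and 23.2% lower in this comparison. In Lysfree cells these shares were 19.7% and 18.8% against Differentiated cells, and 18.0% and 17.1% against Undifferentiated cells. They are the shares to set beside the counts of each list below. Ehd1, a sister ATPase that acts on recycling endosomes, rose by 1.27 on the log2 scale (SE 0.06, adjusted p = 7.9e-111), from 25.8 ± 0.427 to 63.5 ± 2.38 FPKM (SD, n = 3). The neuronal dynamin Dnm1, a GTPase of vesicle scission, fell by 2.15 (SE 0.06, adjusted p = 2.3e-308), from 68.0 ± 2.69 to 15.6 ± 0.550 FPKM. The ubiquitous dynamin Dnm2 fell by 0.49 (SE 0.05, adjusted p = 2.6e-18), and the filamin Flna, which links caveolae to actin, fell by 0.77 (SE 0.05, adjusted p = 4.2e-56). Dnm2 and Flna were chosen after their values were seen.

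In Lysfree against Differentiated cells 13 of these relatives were tested, of which 5 were called higher and 3 lower. Ehd3 rose by 1.48 (SE 0.17, adjusted p = 3.5e-07), from 0.656 ± 0.108 to 1.75 ± 0.0529 FPKM (SD, n = 3). The others called higher were Flna (log2 0.77), Dnm1 (log2 0.61), Pacsin2 (log2 0.54) and Dnm2 (log2 0.31). Ehd4, another endosomal EHD protein, fell by 1.22 (SE 0.12, adjusted p = 2.9e-08), from 12.8 ± 0.836 to 5.26 ± 0.714 FPKM. Ehd1 fell by 1.21 (SE 0.09, adjusted p = 3.0e-10), from 63.5 ± 2.38 to 26.2 ± 1.08 FPKM. The flat-raft scaffold protein Flot1, chosen after its values were seen, fell by 0.47 (SE 0.15, adjusted p = 0.017). Against Undifferentiated cells 1 of 14 was called higher in Lysfree cells, the membrane-bending protein Pacsin2 (log2 0.49, SE 0.10, adjusted p = 0.00012), and 5 were called lower. Among those with a mean of at least 1 FPKM, Dnm1 fell the most (log2 -1.53, SE 0.10, adjusted p = 1.9e-14). Dnm3, below that mean, fell further (log2 -1.69, SE 0.22, adjusted p = 8.9e-08). Without Lysfree 1, 6 relatives were called higher and 4 lower against Differentiated cells, and 1 higher and 5 lower against Undifferentiated cells. The list medians, with genes at the floor of 3 counts left out, were -0.45, 0.37 and -0.17 in Differentiated against Undifferentiated, Lysfree against Differentiated and Lysfree against Undifferentiated cells.

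A list of adipocyte cargo and partner genes moved mostly in the direction of the 6 genes in both comparisons with Differentiated cells. It is not limited to caveola cargo, since it holds the lipid droplet genes Plin1 and Lipe. Cd36 and Plin1 are also among the adipocyte markers given below, so the 2 lists are not independent. Of the 10 genes of this list, 8 were called higher and 1 lower on differentiation, with a median log2 fold change of 2.97. Slc2a4, the insulin-responsive glucose transporter GLUT4, rose from 0.275 ± 0.123 to 10.9 ± 0.369 FPKM (SD, n = 3; log2 5.22, SE 0.15, adjusted p = 1.5e-274). The complement regulator Cd59a, a GPI-anchored raft protein, fell by 0.96 (SE 0.12, adjusted p = 4.6e-16). The insulin receptor gene Insr rose from 3.37 ± 0.186 to 7.38 ± 0.269 FPKM (log2 1.11, SE 0.07, adjusted p = 3.1e-62). Insr was chosen after its values were seen.

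In Lysfree against Differentiated cells none of the 10 was called higher and 9 were called lower, with a median of -2.73 when the 2 genes at the floor of 3 counts were set to their bound. Slc2a4 had 575 to 735 counts in the Differentiated libraries and 0 to 1 in the Lysfree libraries, which is at least 236-fold lower when each Lysfree library is given 3 counts. Without Lysfree 1 all 10 were called lower. Insr fell by 1.35 (SE 0.10, adjusted p = 3.2e-10). Against Undifferentiated cells 3 were called higher and 6 lower in Lysfree cells, and 2 higher and 7 lower without Lysfree 1. The fatty acid translocase Cd36 rose the most among them, by 2.18 (SE 0.13, adjusted p = 3.9e-15, or by 1.89 without Lysfree 1), from 16.6 ± 0.891 to 72.7 ± 21.3 FPKM (SD, n = 3). Among called genes with a mean of at least 1 FPKM, the amine oxidase Aoc3 fell the most, by 3.98 (SE 0.13, adjusted p = 9.7e-22), from 25.4 ± 0.708 to 1.56 ± 0.261 FPKM. Slc2a4, below that mean, had a larger fitted fall (log2 -5.29, SE 0.87, adjusted p = 6.1e-06). It had 9 to 31 counts in Undifferentiated and 0 to 1 in Lysfree libraries, at least 5.94-fold lower when each Lysfree library is given 3 counts. With all 6 libraries the 3 called higher were Cd36, the lipoprotein receptor gene Scarb1 and Abca1, a transporter that exports cholesterol, while Plin1 and Lipe, proteins of the lipid droplet, were among those called lower.

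**Figure D5:**
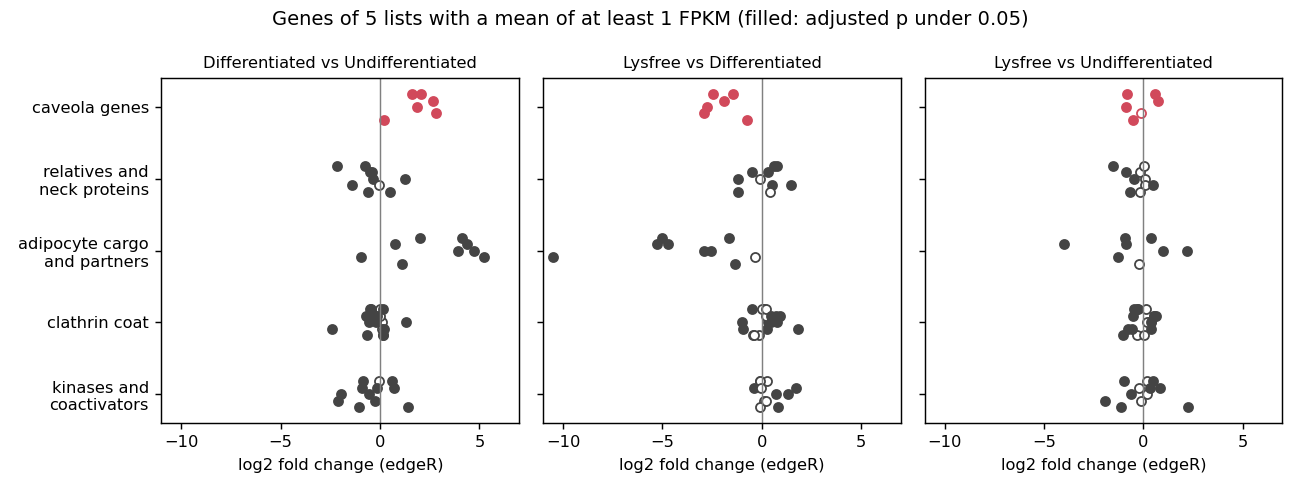
Log2 fold change (edgeR) of the genes of 5 lists with a mean of at least 1 FPKM in the comparison, a point per gene, filled where the adjusted p was under 0.05. The 6 caveola genes and most of the adipocyte cargo genes lie right of 0 in the left panel and left of 0 in the middle panel, and the other lists lie on both sides. The point at the far left of the middle panel is the fitted value of Slc2a4, which had 0 to 1 counts in Lysfree libraries.

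The groups also differed in markers of cell state. The summed level of 8 adipocyte markers was 314 to 395 FPKM in Undifferentiated, 6890 to 7245 FPKM in Differentiated and 292 to 408 FPKM in Lysfree libraries, and 8 of 8 were called higher on differentiation and 8 of 8 lower in Lysfree against Differentiated cells. Against Undifferentiated cells 2 of the 8 were called higher in Lysfree cells, Cd36 and Lpl, and 5 were called lower, with a median log2 fold change of -0.76. Among these, Adipoq stood at 57.8 ± 14.3 FPKM in Undifferentiated and 4.18 ± 0.704 FPKM in Lysfree cells (SD, n = 3), and Cebpa at 22.9 ± 2.76 and 8.23 ± 1.85 FPKM, so the similar sums hide members that moved in opposite directions. None of the 8 was at the floor of 3 counts in any group. The summed level of 5 preadipocyte markers was 471 to 487, 132 to 140 and 547 to 574 FPKM in the same order of groups, with Cd34 at the floor in Differentiated cells. Most of the Lysfree sum was Ly6a, at 89.5 to 101 FPKM in Undifferentiated and 374 to 418 FPKM in Lysfree libraries. Ly6a and Thy1 were called higher in Lysfree against Undifferentiated cells, while Dlk1, Pdgfra and Cd34 were called lower, with a median of -1.72 over the 5. Dlk1 stood at 269.9 ± 2.70 and 65.2 ± 3.54 FPKM in these groups. The caveola genes moved with the adipocyte markers in both comparisons with Differentiated cells, and the part of cell state in their change was not tested. Most markers of other cell types were at or near the floor, with Des and Cd68 as exceptions. The sum of 5 endothelial markers reached at most 0.272 FPKM, with Kdr and Tie1 at the floor in every group. Of 5 muscle markers Myod1, Myog and Ckm were at the floor in every group, and the sum was 0.871 to 4.27 FPKM, most of it Des, which encodes the muscle filament protein desmin and was called higher in Differentiated against Undifferentiated cells (log2 0.32) and lower in Lysfree cells against both (log2 -1.57 against Differentiated and -1.23 against Undifferentiated cells). Of 5 macrophage markers Adgre1, Ptprc and Itgam were at the floor in every group, and the sum was 1.63 to 5.01 FPKM, most of it Cd68, a lysosomal protein gene, which was called higher in Differentiated (log2 1.29) and Lysfree (log2 1.46) against Undifferentiated cells. The part of the Des and Cd68 differences in the results was not tested.

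For each caveola gene the genes with the most similar pattern were listed by Pearson's r of log2(FPKM + 0.1) over the 9 libraries, among 7597 genes with a mean of at least 5 FPKM. The 9 points fall into 3 groups, and r describes mainly the order and spacing of the group means. For Cav1 these were Bnip3, a mitochondrial protein (r = 0.999), Gpcpd1 (r = 0.998) and Cyb5b (r = 0.998). For Cav2 they were the clathrin adaptor Picalm (r = 0.999), the lipoprotein lipase Lpl (r = 0.998) and Supv3l1 (r = 0.997). Like the caveolins, all of these had Lysfree means between the Undifferentiated and Differentiated means.

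The patterns of the cavins were matched by other genes. For Cavin1 they were Emc9, the acyl-CoA dehydrogenase Acadvl and the transketolase Tkt (r = 0.998 each). For Cavin2 they included the sterol transporter Stard4 (r = 0.999) and the acetyl-CoA synthetase Acss2 (r = 0.999). Stard4 stood at 4.97, 30.1 and 4.67 FPKM in Undifferentiated, Differentiated and Lysfree cells, near its Undifferentiated level in Lysfree cells, as Cavin2 was. For Ehd2 they were the dehydrogenases Aldh9a1 (r = 0.999) and Aldh6a1 (r = 0.999) and the mitochondrial carrier Slc25a10 (r = 0.998). Cavin3 had the fewest similar genes, with 3 above r = 0.99, the ribosomal protein gene Rpl9 (r = 0.997), Dcxr (r = 0.992) and Tmed4 (r = 0.991), against 88 for Cav1, 45 for Cav2, 63 for Cavin1, 109 for Cavin2 and 61 for Ehd2. Cavin3 also moved least in both comparisons with Differentiated cells. It had the widest relative spread of the 6 genes in Undifferentiated libraries (SD 9.65% of the mean). The part of these in its low number of similar genes was not tested.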

How the data were processed

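Poly A RNA of 9 libraries (3 per group) was sequenced as paired-end reads. The submitters' processing notes name mm10, HISAT2 2.0.5 and featureCounts 1.5.0-p3. The authors deposited raw counts per gene, not normalized, and a second table in FPKM. In the deposited FPKM, counts were scaled by gene length and library total, up to a constant per library of 0.932 to 1.04. The annotation release and strand setting are not given in the sources used here.

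Groups were taken from the sample labels. The 3 comparisons were each fitted on their 6 libraries with edgeR 4.0.16 in R 4.3.3 (TMM, glmQLFit, glmQLFTest, Benjamini-Hochberg adjustment), leaving out genes with 0 counts in all 6 libraries. An adjusted p under 0.05 was called, and a DEG also changed at least 2-fold. The SE is the log2 fold change divided by the square root of F. The fits were tested on simulated data. Ratios to Cav1 were compared with exact permutation tests in scipy 1.17.1. Alternatives were DESeq2 1.42.0, limma 3.58.1 on log2(FPKM + 1) or log2(FPKM + 0.1), RLE size factors, library sizes alone, other filters, all 9 libraries in a single fit, a replicate block and leaving out each replicate. Between 15880144 and 21806693 counts per library bound the precision, and the floor of 3 counts covers counting error only. Named were the 6 genes, of each list the largest rise and fall among called genes with a mean of at least 1 FPKM, and for each of the 6 the 3 genes of highest r. A gene that this rule gave for Cavin2 is not reported here. The 6 genes and all lists were chosen with earlier results of these data known.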

Additional observations from a re-analysis of the deposited data

How the results depend on the processing

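Over 15 alternative settings in each comparison, all 18 log2 fold changes of the caveola genes kept their direction, and 267 of 270 values kept their side of the threshold. The exceptions all concerned Lysfree against Undifferentiated cells: Cav2 did not pass with limma on log2(FPKM + 1) (0.64, adjusted p = 0.085) or log2(FPKM + 0.1) (0.66, adjusted p = 0.071), and Cavin2, -0.25 to -0.040 when each replicate was left out, passed without Lysfree 1 (-0.25). The cause was not tested. The log2 difference of the Cav2 to Cav1 ratio in this comparison ranged from -0.024 to 0.19 when each replicate was left out and changed sign without Lysfree 1. The number of DEGs among all genes fell from 5329 to 3488 with at least 10 counts in every library and to 2726 with limma on log2(FPKM + 1) in Differentiated against Undifferentiated cells, from 3426 to 2244 and 1474 in Lysfree against Undifferentiated cells, and from 4507 to 2891 and 2198 in Lysfree against Differentiated cells. The first of these settings tests fewer genes. Of 360 counts of called genes in the other lists, 354 stayed within 1.5 times of the reported count, and all 343 values of their named genes kept direction and call, in settings added after seeing the data. Deviations of same-numbered libraries from their group means correlated with r = -0.084 to 0.115, and those of differently numbered libraries with r = -0.161 to 0.113. With 3 libraries per group, these values cannot settle whether the replicate numbers pair the libraries. The replicate block changed no call of the 6 genes (Cav2 0.71 and Cavin2 -0.11 in Lysfree against Undifferentiated cells, the latter with an adjusted p of 0.55). With 3 libraries per group, the exact permutation test of the ratios could not give a p under 0.1.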

Other observations

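The clathrin coat, the other main route of endocytosis, moved in both directions in each comparison. Over all genes tested, 23.0% were called higher and 23.2% lower in Differentiated against Undifferentiated cells. In Lysfree cells these shares were 19.7% and 18.8% against Differentiated cells, and 18.0% and 17.1% against Undifferentiated cells. Of 18 tested genes of the coat and its adaptors, 4 were called higher and 9 lower in Differentiated against Undifferentiated cells, with a median log2 fold change of -0.09. The 4 became 1 in a single fit of all 9 libraries and without Differentiated 2, 2 without Differentiated 1 and 6 without Undifferentiated 2. Picalm rose the most (log2 1.32, SE 0.05, adjusted p = 2.0e-146) and the endocytic adaptor Dab2 fell the most (log2 -2.44, SE 0.08, adjusted p = 3.7e-189). In Lysfree against Differentiated cells 8 were called higher and 4 lower (median 0.21, 5 called higher with limma on log2(FPKM + 1) and 12 without Lysfree 1), led by Dab2 (log2 1.85, SE 0.12, adjusted p = 6.9e-11) and Picalm (log2 -0.97, SE 0.09, adjusted p = 2.1e-08). In Lysfree against Undifferentiated cells 6 were called higher and 7 lower (median 0.07, 4 called lower without Undifferentiated 3, and 7 in each direction without Lysfree 1), led by Ap2a2 (log2 0.65, SE 0.10, adjusted p = 3.0e-06) and Hip1r (log2 -1.03, SE 0.16, adjusted p = 2.9e-06).

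Another list of 12 genes held kinases that act on caveolin 1 and the transcriptional coactivators Yap1, Wwtr1, Mrtfa and Mrtfb. It also held transcription factors that such coactivators bind, Srf and the Tead genes. On differentiation 3 were called higher and 8 lower (median -0.39), with Tead4, a partner of YAP, as the largest rise (log2 1.40, SE 0.10, adjusted p = 9.4e-46) and Tead3 as the largest fall (log2 -2.14, SE 0.09, adjusted p = 7.9e-129). Tead4 rose further in Lysfree cells, from 3.36 ± 0.0822 FPKM in Undifferentiated and 9.04 ± 0.670 FPKM in Differentiated to 15.4 ± 0.938 FPKM in Lysfree libraries (SD, n = 3). In Lysfree against Undifferentiated cells 4 were called in each direction (median 0.04, 4 higher and 6 lower without Lysfree 1), with Tead4 (log2 2.24, SE 0.13, adjusted p = 5.3e-16) and Tead3 (log2 -1.91, SE 0.14, adjusted p = 1.7e-13) at the ends. In Lysfree against Differentiated cells 4 were called higher and 1 lower (median 0.18, 6 higher and 2 lower without Lysfree 1). The kinase gene Fyn rose by 1.72 (SE 0.10, adjusted p = 1.8e-11), from 7.85 ± 0.384 to 24.7 ± 2.32 FPKM, and Tead1 fell by 0.40 (SE 0.11, adjusted p = 0.0038).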
